A study of Mus musculus with 10 samples.

Results

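The contractile genes of smooth muscle were followed through 10 RNA libraries from mouse terminal ileum. They are Acta2, Actg2, Myh11, Myl9, Mylk, Cnn1, Tagln, Lmod1, Des and Synpo2. The 10 genes were chosen by symbol among the 36401 genes of the tables, and each symbol matched 1 Ensembl gene. The study asked how surgery on the stomach changes gene expression in the ileum. All mice were male C57Bl6 mice given a diet with 60% of energy from fat for 6 weeks before surgery, and the labels give an age of 8 weeks at surgery. One group of 5 mice had a vertical sleeve gastrectomy (VSG), an operation that leaves the stomach as a narrow tube, and then ate freely. The other group of 5 had a sham operation and was pair-fed, that is, given the amount that the VSG mice ate. That group carries the label SPF, for sham pair-fed. Both groups received the liquid diet Osmolite for 4 days around surgery. About 8 weeks later the mice were fasted overnight, gavaged with 0.5 mL of it and killed 1 hour afterwards. The sources used here do not say how much of the muscle wall was taken with the mucosa.

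The wall of the ileum holds an inner circular and an outer longitudinal layer of smooth muscle, which mix and move the gut contents. A thin muscle sheet also lies under the mucosa, and smooth muscle surrounds the blood vessels. In these cells calcium bound to calmodulin activates myosin light chain kinase, which phosphorylates the regulatory light chain so that smooth muscle myosin can pull on actin. Serum response factor (SRF) and its partner myocardin switch on most genes of this apparatus through a DNA element called the CArG box.

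Per kilobase of exon, the most abundant of the 10 were Acta2 at 119 CPM (read counts scaled to a common, TMM-normalised library total), Actg2 at 110, Myl9 at 108 and Tagln at 107. These 4 levels lie closer together than the spread of any of them between libraries. Des stood at 51.2 CPM per kilobase, Cnn1 at 40.9, Myh11 at 33.6 and Mylk at 29.0. Lmod1 at 4.01 and Synpo2 at 2.04 were the lowest. Exon lengths were taken from GENCODE M21, which describes a later genome build than the files, so this order is approximate. It understates long genes with many alternative exons, such as Mylk and Synpo2.

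The start regions of the members were searched for the CArG box on both strands. RefSeq windows (GRCm38.p6) of 300 bases, with 250 before and 50 after the gene start, were matched by symbol for 7 of the 10 genes. The box was found in 1 of the 7 windows, that of Myl9, and in 1.63% of all 32851 windows. A form with a single G or C inside the A and T run was found in 2 of the 7, Acta2 and Myl9, and in 8.50% of all windows. The stretches that hold these elements are shown with the elements in capitals, read 5′ to 3′ on the strand of the gene. They lie at chr19:34255378-34255487 (minus strand) and chr2:156775273-156775394 (plus strand), upstream of the annotated starts. A match is a description of the letters and not evidence of binding.
Acta2: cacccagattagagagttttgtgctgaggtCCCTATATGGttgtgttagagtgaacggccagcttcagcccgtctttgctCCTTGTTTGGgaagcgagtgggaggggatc
Myl9: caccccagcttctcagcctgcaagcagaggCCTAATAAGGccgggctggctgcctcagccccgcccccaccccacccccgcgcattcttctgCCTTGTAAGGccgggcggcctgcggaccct

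Library totals ran from 15364651 to 34058181 estimated counts, and each of the 10 genes had at least 56 counts in every library. Genes that mark position along the gut did not follow the label in every library. In VSG 2, SPF 2 and SPF 4 the 5 upper small intestine markers (Gata4, Lct, Onecut2, Adh6a, Gip) summed to 2790, 3226 and 3023 CPM, against 23.6 to 56.7 in the other 7. The ileal genes Fabp6 and Slc10a2 went the other way, with sums of 50.3, 72.7 and 66.0 CPM in those 3 libraries and 2878 to 6308 in the others. The fold changes of the members, their spread and pairs, and the relations with Myh11 are therefore also given without these 3 libraries.

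Actin and myosin form the filaments that slide. Acta2 encodes the actin found in all smooth muscle and in myofibroblasts. It stood at 335, 151, 172, 166 and 305 CPM in VSG 1 to 5 and at 222, 330, 76.7, 246 and 603 CPM in SPF 1 to 5. SPF 5 was above every VSG library and SPF 3 below every one, and the other 3 SPF libraries lay within the VSG range. The log2 fold change of VSG against SPF was -0.39 ± 0.45 (SE; 95% interval -1.38 to 0.60; edgeR adjusted p = 0.977).

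Actg2 encodes the gamma actin of enteric smooth muscle. Its level was 186, 69.0, 84.6, 76.8 and 164 CPM in VSG 1 to 5 and 117, 210, 33.6, 88.7 and 677 CPM in SPF 1 to 5. The level in SPF 5 was 20.2-fold that in SPF 3, while the VSG libraries spanned 2.69-fold. The log2 fold change was -0.96 ± 0.67 (SE; 95% interval -2.43 to 0.52; edgeR adjusted p = 0.977).

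Myh11, the heavy chain of smooth muscle myosin, is among the most specific markers of the mature muscle cell. It stood at 232, 163, 170, 125 and 337 CPM in VSG 1 to 5 and at 158, 521, 25.2, 278 and 540 CPM in SPF 1 to 5. SPF 2 and SPF 5 were high and nearly equal, which set this gene apart from Actg2, where SPF 5 stood far above SPF 2. The log2 fold change was -0.57 ± 0.61 (SE; 95% interval -1.92 to 0.78; edgeR adjusted p = 0.977). Myl9, the regulatory light chain, ranged from 71.7 to 167 CPM in VSG and from 32.0 to 235.5 in SPF, again lowest in SPF 3 and highest in SPF 5.

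Among the genes that regulate or stabilise the filaments, Mylk varied least. Mylk encodes myosin light chain kinase, and a long form of the kinase is also made in intestinal epithelium. The gene also encodes telokin, and the deposited values do not part these products. Mylk stood at 274, 322, 232, 274 and 309 CPM in VSG 1 to 5 and at 283, 566, 160, 445 and 405 CPM in SPF 1 to 5. It was the only one of the 10 with its highest level in SPF 2, and its full range was 3.54-fold. The other 9 ranged from 7.36-fold (Myl9) to 31.4-fold (Synpo2).

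Cnn1 encodes calponin, which binds actin and damps myosin ATPase activity. It stood at 145, 48.5, 60.7, 49.7 and 102 CPM in VSG 1 to 5 and at 78.3, 109, 20.6, 62.6 and 442 CPM in SPF 1 to 5. Only SPF 5 exceeded the highest VSG library. Tagln, the actin-binding protein transgelin, ranged from 107 to 275.5 CPM in VSG and from 67.7 to 569 in SPF. Lmod1, which nucleates actin filaments in smooth muscle, ranged from 9.51 to 17.3 CPM in VSG and from 2.80 to 36.6 in SPF. Both had the same lowest and highest library as Cnn1.

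Des and Synpo2 belong to the scaffold that carries force through the cell. Des encodes desmin, the intermediate filament of muscle, and stood at 204, 123, 116, 83.3 and 179 CPM in VSG 1 to 5. In SPF 1 to 5 it stood at 88.8, 262, 32.6, 169 and 667 CPM. Synpo2 encodes synaptopodin 2, an actin-bundling protein. Its levels were even in VSG, at 17.2, 19.3, 19.9, 15.4 and 23.5 CPM, and uneven in SPF, at 16.6, 43.5, 2.21, 40.3 and 69.2 CPM. Of the 10 genes Synpo2 had the largest range, and its 3 high SPF libraries exceeded every VSG library.

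**Figure D1:**
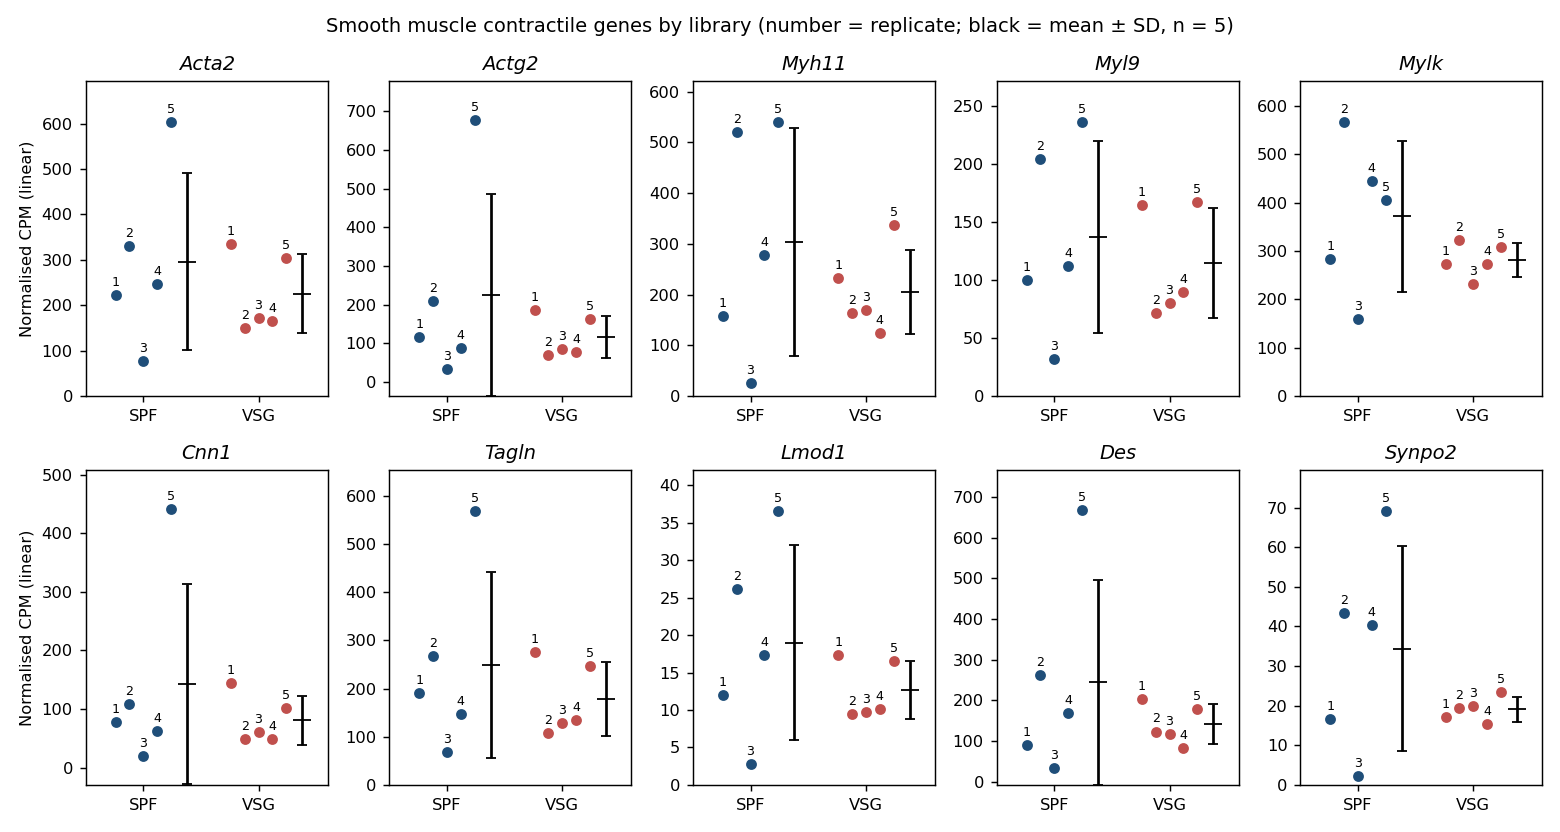
Normalised CPM (linear axis) of the 10 genes in each library, SPF in blue and VSG in red, with replicate numbers beside the points and the mean ± SD of 5 libraries in black. SPF 3 is the lowest library for all 10 genes and SPF 5 the highest for 9, while the VSG libraries sit inside the SPF range.

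Between VSG and SPF, no contractile gene passed the test. All 10 had lower fitted values in VSG, as had 58.1% of the 15678 genes tested, and the groups overlapped for each (0.549% of all genes had groups that did not). With edgeR's quasi-likelihood test and Benjamini-Hochberg adjustment over all genes, 0 of the 10 were called, beside 0% of all genes tested. At an unadjusted p under 0.05 there were 0 of the 10, beside 3.8% of all genes (1.91% lower in VSG), and the lowest p among the 10 was 0.182 (edgeR, unadjusted, Actg2). DESeq2 called 11 genes, 0.0702% of those tested, and limma-voom called 0, with 0 of the 10 members in both. The median log2 fold change of the 10 was -0.58, against -0.05 over all genes tested.

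For 6 of the 10 the direction rested on SPF 5. Without that library 4 of the 10 were lower in VSG (Myh11, Mylk, Lmod1 and Synpo2), beside 55.9% of all genes. Without it the log2 fold change was 0.07 for Actg2, 0.28 for Cnn1, 0.05 for Des, 0.11 for Tagln, and 0.06 for both Acta2 and Myl9. Without SPF 3 the values moved away from 0, to -1.23 for Actg2 and -0.86 for Myh11. In limma-voom, which compares means of log values, the 10 fold changes ran only from -0.32 to -0.01. The mean log2 CPM of Myh11 was 7.60 in VSG and 7.64 in SPF. Without VSG 2, SPF 2 and SPF 4, 9 of the 10 were lower, with Myh11 at -0.16, Mylk at -0.05 and Myl9 at 0.04.

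**Figure D2:**
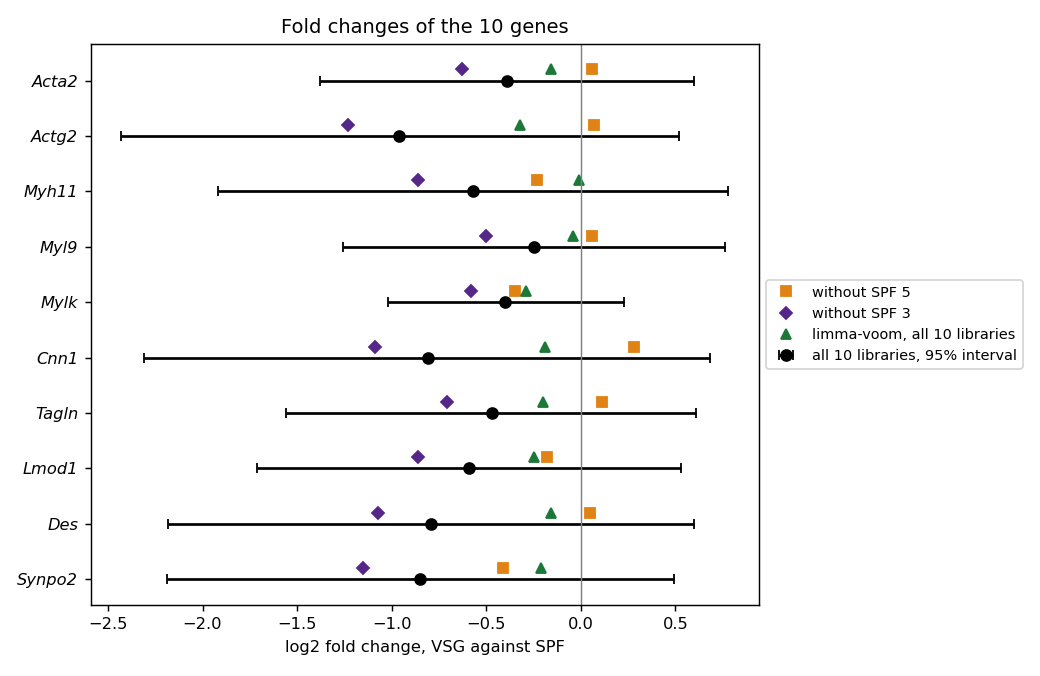
Log2 fold change of VSG against SPF for each gene, with 95% intervals from edgeR over all 10 libraries (black), and values without SPF 5, without SPF 3 and with limma-voom. Every interval holds 0, and 6 of the 10 genes lie above 0 without SPF 5.

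For all 10 the SD of log2 CPM was larger in SPF than in VSG, as it was for 73.5% of all genes tested. The median SD of the 10 was 1.51 in SPF and 0.54 in VSG, against 0.40 and 0.27 over all genes. Synpo2 had an SD of 1.96 in SPF and 0.23 in VSG, and Myh11 of 1.82 and 0.55. Part of this spread came from SPF 3 and part from SPF 5, in shares that differed by gene. Without SPF 3, an alternative chosen after seeing the data, the median SD of the 10 in SPF was 0.84. Myh11 was then at 0.84, Synpo2 at 0.86, Acta2 at 0.65 and Myl9 at 0.61, but Actg2 at 1.30, Cnn1 at 1.27 and Des at 1.22. SPF had the larger SD for 10 of the 10, beside 55.4% of all genes. Without SPF 5 the median SD in SPF was 1.11, with Actg2 at 1.10, Cnn1 at 1.04 and Myh11 at 1.88. The count was also 10, beside 74.1%. Without both libraries it was 5 of the 10, beside 54.9%, and the median SD was 0.56. Without VSG 2, SPF 2 and SPF 4 it was 10 of the 10, beside 67.4%. The difference in spread was not tested. In tissue of this kind, fewer muscle cells in the piece and less muscle RNA per cell cannot be told apart.

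The same libraries were high and low for nearly all members. SPF 3 was lowest for 10 of the 10 genes, beside 24.3% of all genes tested. SPF 5 was highest for 9, beside 13.3%, and the joint pattern of 9 members was shared by 5.54% of all genes. Relative to each gene's own mean, the median of the 10 was -1.90 log2 units in SPF 3 and 1.56 in SPF 5. It was 0.87 in SPF 2, 0.54 in VSG 1 and 0.39 in VSG 5. The remaining libraries had medians from -0.52 (VSG 2) to 0.17 (SPF 4).

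**Figure D3:**
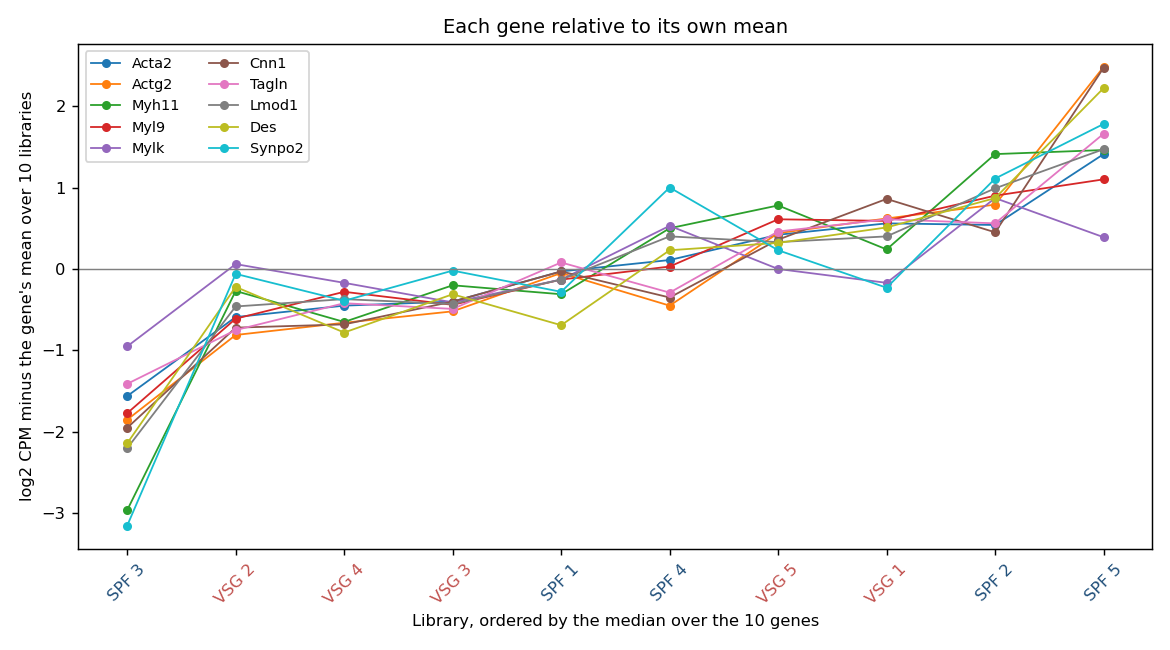
Log2 CPM of each gene minus its mean over the 10 libraries, with libraries ordered by the median over the genes (VSG names in red, SPF in blue). All lines are lowest at SPF 3, and at SPF 5 they fan out from 0.39 (Mylk) to 2.48.

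Over the 10 libraries the 45 pairs of members had Pearson's r of log2 CPM from 0.58 to 0.99, with a median of 0.91. Spearman's rho ran from 0.44 to 0.99 (permutation p for r from 1e-05, the smallest possible, to 0.0743, and adjusted over the 45 pairs from 0.000112 to 0.0743; for rho from 1e-05 to 0.204, and adjusted to 0.204 at most). The 4 pairs of Mylk with Acta2, Actg2, Cnn1 and Tagln had the lowest r, from 0.58 to 0.72. Without the 2 libraries farthest from the median of the first gene of a pair, r ran from 0.19 to 0.98, so some pairs rested on SPF 3 and SPF 5. Among the 7 libraries low in upper small intestine markers, r ran from 0.89 to 1.00.

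Actg2 was compared with Acta2 inside each library, a ratio that does not depend on scaling between libraries. Counts of Actg2 per count of Acta2 were 0.555, 0.458, 0.492, 0.462 and 0.539 in VSG 1 to 5. In SPF 1 to 5 they were 0.528, 0.635, 0.438, 0.361 and 1.12, so SPF 5 alone had more Actg2 than Acta2. Both genes code for nearly identical proteins, and the sources used here do not say how reads shared by similar genes were split. On the log2 scale the SD was 0.13 in VSG and 0.63 in SPF (n = 5 each), and the means differed by -0.19, VSG minus SPF, which is within the spread between SPF libraries (exact two-sided permutation p = 0.6429, smallest possible 0.0079). Without SPF 5 the difference changed sign, from -0.19 to 0.06. In SPF 5 the ratio of Cnn1 to Myl9, chosen after its values were seen, was likewise 1.88, against 0.535 to 0.880 in the other 9 libraries.

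Other genes of the contractile machinery were taken from 6 lists. Of their 74 genes 72 were tested, 53 were lower and 19 higher in VSG, and 0 were called (edgeR, with 1 at an unadjusted p under 0.05). Over all genes 58.1% were lower and 3.8% had an unadjusted p under 0.05. With the epithelial markers as a covariate 35 of the 72 were lower, beside 54% of all genes. Without SPF 5 there were 49, beside 55.9% of all genes, and without VSG 2, SPF 2 and SPF 4 there were 50. In the main fit the median log2 fold change of the 72 was -0.31, against -0.05 over all genes. Among filament and crosslinking genes 16 of 19 were lower. Vim, the intermediate filament of mesenchymal cells, had the lowest p of all 72 at 49.7 ± 8.46 CPM in VSG and 65.1 ± 12.1 in SPF (SD, n = 5 each; log2 fold change -0.39 ± 0.16, edgeR adjusted p = 0.977). Pdlim3, Csrp1 and Nexn, proteins of actin anchoring sites, had log2 fold changes of -0.69, -0.57 and -0.63, and of -0.20, -0.07 and -0.38 without SPF 5. All 3 were lowest in SPF 3 and highest in SPF 5, as were most genes of this list, with 16 of 19 lowest in SPF 3 and 15 highest in SPF 5.

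Genes that set how strongly myosin is phosphorylated were less uniform in direction. Of 12 genes for myosin phosphatase, its regulators and cyclic GMP signalling, 6 were lower in VSG and 6 higher, and the median log2 fold change was -0.07. Of these 12 genes 9 were lowest in SPF 3, beside 24.3% of all genes tested, and 3 highest in SPF 5, beside 13.3%. Ppp1r12b, a targeting subunit of myosin phosphatase, had a log2 fold change of -0.65 ± 0.43, and Gucy1a3, a subunit of the nitric oxide receptor, of -0.61 ± 0.40. Rock1, a protein kinase made in many cell types, had 0.25 ± 0.20. Prkg1, the cyclic GMP-dependent kinase of muscle, was low in all libraries, at 0.366 CPM in VSG and 0.748 in SPF.

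Of 13 genes for calcium handling and potassium channels, 8 were lower and 5 higher in VSG. Lowest in SPF 3 were 10 of them, and 4 were highest in SPF 5. Cacna1c, the pore of the L-type calcium channel, stood at 2.11, 2.56, 2.36, 1.65 and 3.16 CPM in VSG 1 to 5 and at 2.73, 8.73, 0.709, 3.18 and 7.41 CPM in SPF 1 to 5. It shared the low level in SPF 3 and the high levels in SPF 2 and SPF 5 with Myh11. Itpr1, a channel that releases stored calcium, had a log2 fold change of -0.74 ± 0.38 and peaked in SPF 4 at 63.7 CPM. Ryr2 and Atp2b4, a store release channel and a calcium pump of the cell membrane, had -0.81 ± 0.60 and -0.69 ± 0.51. Without VSG 2, SPF 2 and SPF 4 the value of Ryr2 was 0.20.

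Among receptors 6 of 8 tested genes were lower in VSG. Of the 9 receptor genes 7 were lowest in SPF 3 and 2 highest in SPF 5. Tacr2, a tachykinin receptor of gut muscle, had a log2 fold change of -0.86 ± 0.54, Ednra, an endothelin receptor, 0.43 ± 0.32, and the purine receptors P2rx1 and P2ry1 -0.26 ± 0.19 and -0.14 ± 0.12. The serotonin receptor gene Htr2b was too low to be tested. In the dystrophin, integrin and caveola list all 10 tested genes were lower, beside 58.1% of all genes, with Sgca too low to be tested. Of the 11 genes of this list 11 were lowest in SPF 3 and 8 highest in SPF 5. Ptrf and Cav1, which build caveolae, had -0.54 ± 0.31 and -0.60 ± 0.38, and -0.29 and -0.21 without SPF 5. The integrin gene Itga5 had -0.70 ± 0.51, a value of 0.04 without SPF 5, and Sgce, a sarcoglycan, had -0.38 ± 0.25.

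Transcription factors of smooth muscle did not all share the pattern of the members over the libraries. Myocd, which encodes myocardin, stood at 0.820, 1.09, 1.01, 1.01 and 1.08 CPM in VSG 1 to 5 and at 1.40, 2.29, 0.0788, 1.56 and 5.15 CPM in SPF 1 to 5. SPF 3 was lowest and SPF 5 highest, as for 9 of the members. Srf was even across libraries, at 96.6 to 138 CPM in VSG and 82.3 to 121 in SPF, with SPF 5 the lowest. The log2 fold change was -1.07 ± 0.66 for Myocd and 0.26 ± 0.15 for Srf (edgeR adjusted p = 0.977 each). For Myocd the value was -0.39 without SPF 5, -0.36 in limma-voom and -0.01 with the epithelial markers as a covariate. Of the 10 factors 7 were lower and 3 higher (median -0.07). Lowest in SPF 3 were 6 of the 10, and 3 were highest in SPF 5. Meis1 and Foxf2, homeobox and forkhead factors of gut mesenchyme, had -0.47 ± 0.40 and -0.30 ± 0.25.

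The genes most like the members were ranked by Pearson's r of log2 CPM with the mean of the 10 members over the 10 libraries, among the 14129 genes whose mean reached 1 CPM. The 10 at the top were Pgm5 (r = 0.993), Pdlim3 (0.990), Cd59a (0.989), Tpm2 (0.989), Hspb6 (0.988), Prune2 (0.986), Rbpms (0.985), B3galnt1 (0.985), Slc2a4 (0.981) and Kcnmb1 (0.979). Their Spearman's rho ran from 0.90 to 0.99. Pdlim3, Tpm2 (a tropomyosin) and Kcnmb1 (a potassium channel subunit) were in the lists already, and Hspb6 encodes a small heat shock protein of muscle. Of 69 other contractile pathway genes ranked, 22 (31.9%) had r over 0.9, against 156 (1.1%) of all genes ranked. These points share their libraries, so this is a description with no test.

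Markers of other cells of the gut wall were set beside Myh11, which stands here for the muscle, because the depth of dissection may differ between pieces of tissue. Pearson's r of log2 CPM with the mean of a marker list was computed over 10 libraries for 13 lists, with permutation p-values adjusted over the 13. Markers of enteric neurons, which lie in plexuses between and beneath the muscle layers, followed Myh11 most closely, with r = 0.99 (permutation p = 2e-05, adjusted 0.00026) and rho = 0.92 (permutation p = 0.0005, adjusted 0.0065). Without SPF 3 and SPF 5, the libraries farthest from the median, r was 0.97. Within the 7 libraries low in upper small intestine markers r was 0.99 (exact permutation p = 0.000794, adjusted 0.0103).

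Of the 12 neuron genes 11 were lowest in SPF 3 and 9 highest in SPF 5. Elavl4, an RNA-binding protein of neurons, stood at 0.438 to 0.760 CPM in VSG and at 0.682, 2.10, 0.0788, 0.836 and 2.26 CPM in SPF 1 to 5. The summed level of the list was 52.4 to 86.0 CPM in VSG and 22.0 to 129 CPM in SPF. Ret and Vip make up much of that sum, and Ret, a receptor kinase that immune cells also express, was lowest in SPF 4 and not in SPF 3.

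Markers of enteric glia (r = 0.88, permutation p = 0.00064, adjusted 0.00416; rho = 0.76, permutation p = 0.0149, adjusted 0.0498) also went with Myh11. So did those of vascular mural cells, that is, vascular smooth muscle and pericytes (r = 0.93, permutation p = 0.00102, adjusted 0.00442; rho = 0.76, permutation p = 0.0153, adjusted 0.0498). Without the 2 farthest libraries r was 0.72 for glia and 0.69 for mural cells. Within the 7 libraries it was 0.87 (exact permutation p = 0.0266, adjusted 0.0864) and 0.95 (0.00635, adjusted 0.0413). The glial list summed to only 3.31 to 6.06 CPM in VSG and 1.89 to 16.4 in SPF. In SPF 3 Cdh19 stood at 0.0394 and Gfap at 0.0788 CPM, so log2 values of this list rest on few reads there. The mural list summed to 134 to 182 CPM in VSG and 65.7 to 297 in SPF, and the pericyte gene Higd1b had no count in 1 library.

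For 3 further lists the relation did not pass the adjusted threshold over the 10 libraries. For interstitial cells of Cajal, the pacemakers of gut muscle, r was 0.70 (permutation p = 0.0317, adjusted 0.0756) with rho = 0.61 (permutation p = 0.0652), and r was 0.21 without SPF 3 and SPF 5, and 0.88 without SPF 4. Within the 7 libraries it was 0.90 (exact permutation p = 0.02, adjusted 0.0864). Of the 5 genes of this list 3 were lowest in SPF 3 and 3 highest in SPF 5. Kit and Ano1, which define these cells, were among both, and reached 40.6 and 34.8 CPM in SPF 5, while Edn3 was lowest in SPF 4 and highest in VSG 4. Fibroblast and matrix genes had r = 0.65 (permutation p = 0.0349, adjusted 0.0756; rho = 0.54) and 0.05 without the same pair of libraries, so that relation rested on them. Its r was 0.63 within the 7 libraries (exact permutation p = 0.113, adjusted 0.21). Endothelial markers had r = 0.72 (permutation p = 0.017, adjusted 0.0552; rho = 0.53), 0.42 without SPF 3 and VSG 1, and 0.76 within the 7 (exact permutation p = 0.0498, adjusted 0.129).

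Epithelial markers had a negative r with Myh11 that did not pass the adjusted threshold. It was -0.61 (permutation p = 0.057, adjusted 0.106, with rho = -0.45), and -0.29 without SPF 3 and SPF 4. Within the 7 libraries r was -0.71 (exact permutation p = 0.0784, adjusted 0.17). The summed level of these markers was 17019 to 23957 CPM in VSG, and in SPF it ran from 13673 CPM in SPF 4 and 14172 in SPF 5 to 29022 in SPF 3. Not every gene of the list followed that sum. In SPF 3 the keratins Krt8 and Krt19 were at their highest, at 9900 and 4150 CPM, while Cdh1 was at its lowest, at 656 CPM. Vil1 at 3540 and Krt20 at 3290 CPM in SPF 3 lay within the VSG range. CPM values are relative to a library's normalised total, so the levels of different tissues are not independent. What lies behind the negative r of the epithelial markers was not tested. Markers of B cells and follicles summed to 221 CPM in SPF 3, the highest of all, and 8.21 in SPF 2 (r = -0.52, permutation p = 0.112, adjusted 0.162; rho = -0.73, permutation p = 0.0202, adjusted 0.0526; r = -0.41 within the 7). The lists of mesothelium, adipocytes, striated muscle, upper small intestine and ileal bile acid uptake had r from -0.31 to 0.56 (adjusted permutation p 0.16 to 0.976) and from -0.50 to 0.62 within the 7, with rho of 0.88 for striated muscle (adjusted permutation p 0.00936). In the striated muscle list Myh1, Myh2, Myh4, Myh6 and Tnnt3 had no count in at least 1 library. Its sum was mostly Acta1, which ran against Myh11 at 63.8 CPM in SPF 3 and 31.1 in SPF 5. Ckm stood at 1.06 CPM in SPF 3 and 12.8 in SPF 5. The r and rho were computed on the mean log2 CPM of the list and not on the sum. Of the mesothelial markers Upk3b, Lrrn4 and Wt1 had no count in some libraries.

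**Figure D4:**
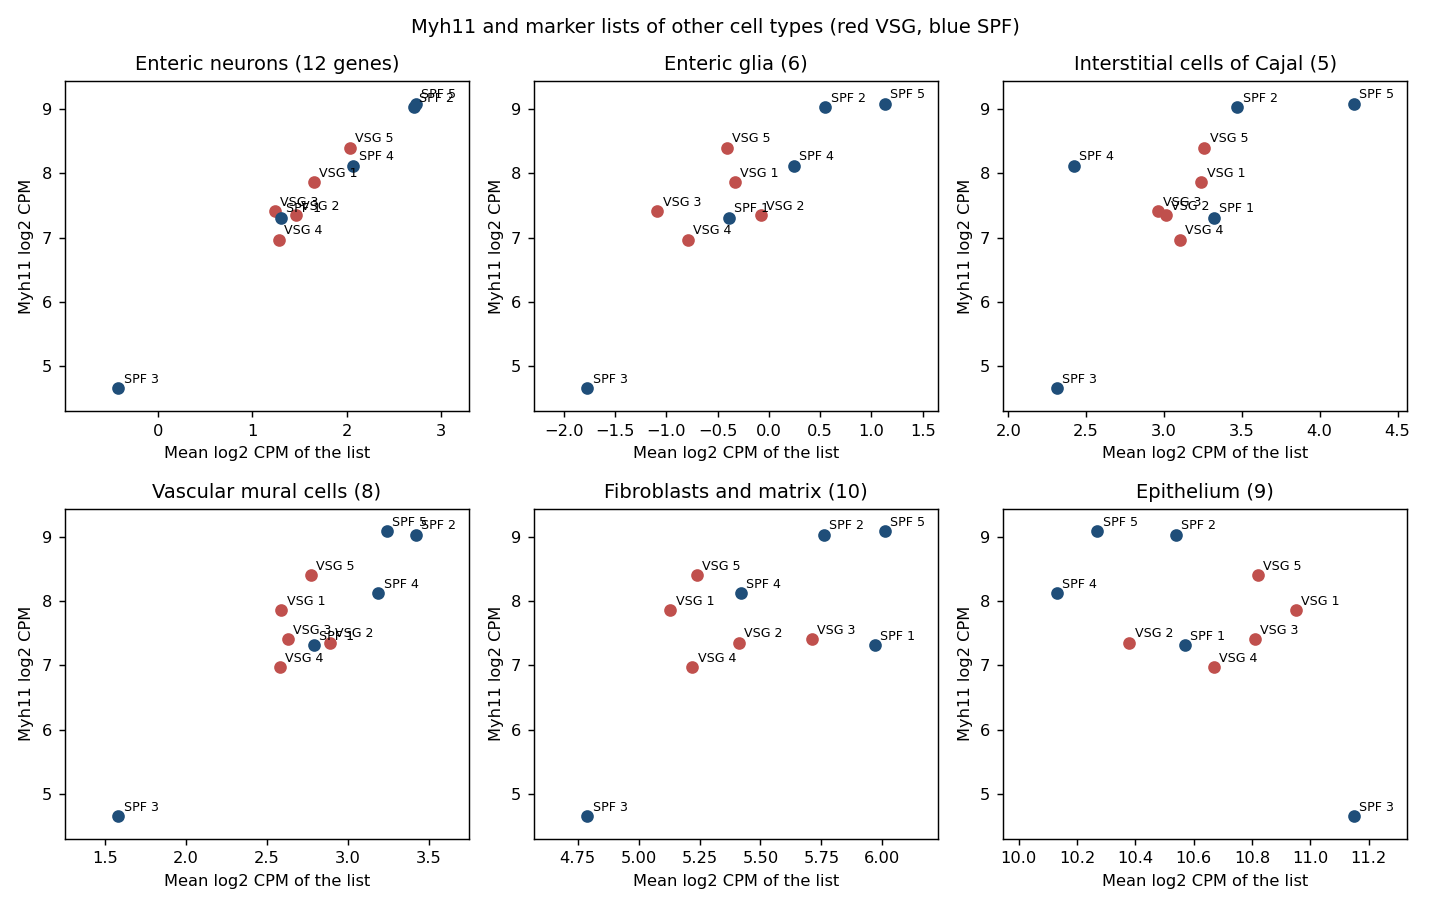
Myh11 log2 CPM against the mean log2 CPM of 6 marker lists, 1 point per library (VSG red, SPF blue). Neuron markers lie closest to a line (r = 0.99), and SPF 3 is lowest in all lists shown but the epithelial one, where it is highest.

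As a further value for dissection depth, Myh11 was set against the summed CPM of the 9 epithelial markers. The ratio was 0.00970, 0.00959, 0.00761, 0.00611 and 0.0149 in VSG 1 to 5 and 0.00871, 0.0279, 0.000867, 0.0203 and 0.0381 in SPF 1 to 5. On the log2 scale the VSG libraries averaged -6.77 ± 0.48 and the SPF libraries -6.50 ± 2.20 (SD, n = 5 each), and the groups overlapped (exact two-sided permutation p = 0.8571). The difference of -0.27 changed sign without SPF 2 (0.07), without SPF 5 (0.18) and without VSG 2, SPF 2 and SPF 4 (0.46). With the epithelial list as a covariate 3 of the 10 members were lower in VSG, beside 54% of all genes, and 0 were called. The part that the depth of dissection has in the levels of the contractile genes was not tested.

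**Figure D5:**
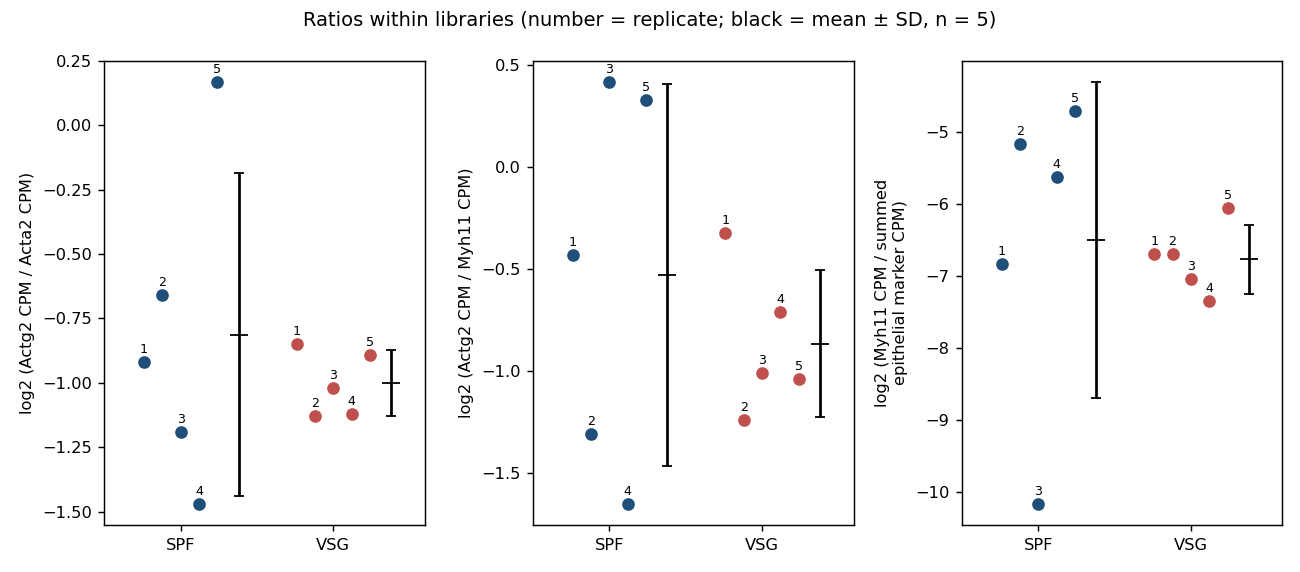
Log2 ratios inside each library of Actg2 to Acta2, of Actg2 to Myh11 and of Myh11 to the summed epithelial markers, with the mean ± SD of 5 libraries in black. SPF 5 is high in all 3 panels, and in the third SPF 3 lies far below at -10.17.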

How the data were processed

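Illumina TruSeq libraries were read from a single end over 50 bases, per the labels' protocols. For each Ensembl gene the authors deposited an estimated count, although the file names say RPKM. These sum to 15364651 to 34058181 per library, and 33.33% of the values above 0 are whole numbers exactly, with no tolerance. The submitters' processing notes list DESeq and mm9. Aligner and counter: not given in the sources used here. The deposited log2 files were not used. Counting by strand is not stated, so overlapping antisense genes cannot be parted.

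Estimated counts were rounded and fitted over all genes with edgeR 4.0.16 (R 4.3.3), with filterByExpr, TMM and a quasi-likelihood F test on surgery. All 10 members passed the filter. P-values were adjusted by Benjamini-Hochberg with a threshold of 0.05. Log2 CPM values use a prior count of 2, and correlations 100000 permutations, or exact enumeration below 10 libraries. The fit was tested on simulated counts.

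Named genes are the 10 members, up to 4 genes with the lowest p from each of 6 pathway lists, and the 10 genes most like the members. Members and lists were chosen with earlier results of these data known. Alternatives were other scalings and filters, DESeq2 1.42.0, limma-voom (limma 3.58.1), a replicate block, covariates and left-out libraries.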

Additional observations from a re-analysis of the deposited data

Results flagged for a closer look

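Within groups of 5 libraries, a value was singled out where its gap to the nearest other exceeded 0.71 of the whole range. Of 98 groups looked at, 8 met this rule. Chance gives about 1 in 20 for normally distributed values in separate groups. These groups are linear CPM values from shared libraries, so that rate is no measure for the 8. Among the genes singled out, SPF 5 was high for Actg2 at 677 CPM, Cnn1 at 442 CPM and Itga5 at 106 CPM. In VSG 1 the level of Myocd was 0.820 CPM, below an otherwise narrow group. Ednra stood at 12.2 CPM in VSG 2. The endothelial markers summed to 45.9 CPM in SPF 3, below the other SPF libraries. In VSG 2 the upper small intestine markers summed to 2790 CPM and the ileal genes to 50.3 CPM, each apart from the other 4 VSG libraries.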

How the results depend on the processing

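Called genes numbered 0 in edgeR under every scaling, filter, covariate and left-out library, and 11 with DESeq2, with no member among them. With the epithelial list as a covariate 3 members and 35 pathway genes were lower in VSG, and log2 fold changes were 0.06 for Acta2, 0.26 for Myh11, 0.13 for Myl9, 0.01 for Cnn1, 0.08 for Lmod1, 0.14 for Des, 0.34 for Synpo2, 0.03 for Pdlim3 and 0.06 for Atp2b4. The cause was not tested. Without VSG 2, SPF 2 and SPF 4 those of Myl9 and Ryr2 were 0.04 and 0.20, and the difference in Myh11 relative to epithelium was 0.46. Members with the larger SD in SPF numbered 5 without both SPF 3 and SPF 5 and 10 without either alone. With each library left out in turn, members lower in VSG numbered 4 to 10. Log2 fold changes ran from -0.63 to 0.06 for Acta2, -1.23 to 0.07 for Actg2, -0.50 to 0.06 for Myl9, -1.10 to 0.28 for Cnn1, -0.71 to 0.11 for Tagln, -1.07 to 0.05 for Des and -0.94 to 0.04 for Itga5. The upper ends came without SPF 5. In the same runs the difference in Myh11 relative to epithelium ran from -1.18 to 0.18 and that in Actg2 relative to Acta2 from -0.35 to 0.06. The r with Myh11 ran from 0.54 to 0.88 for interstitial cells (called without SPF 4), 0.38 to 0.79 for endothelium, 0.33 to 0.77 for fibroblasts (called without SPF 1), -0.06 to 0.54 for mesothelium, -0.23 to 0.28 for adipocytes and 0.43 to 0.82 for striated muscle (called without SPF 3). The endothelial relation was called without VSG 2, VSG 5 or SPF 1 and with library totals (r = 0.74). The neuron relation ran from 0.98 to 0.99 and kept its call.

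Groups share replicate numbers, but deviations of same-numbered libraries correlated at 0.04, 0.18, -0.05, -0.32 and -0.07, and 1 of 10 libraries matched its own number best, so the numbers were not taken as pairs. With a replicate block 10 members and 51 pathway genes were lower and 0 genes were called. The log2 fold changes of the members were -0.40 to -0.06 with the block, against -0.96 to -0.25 in the main fit. The differences in mean log2 ratio are another matter, because in this balanced design a block cannot move them. The values of -0.27 for Myh11 relative to epithelium and -0.19 for Actg2 relative to Acta2 therefore had to stay the same. The block changed no call. With 5 libraries a group, the 95% intervals of the members reach down to log2 fold changes of -2.43 (Actg2) to -1.02 (Mylk), so a 2-fold lower level lies inside all 10.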

Other observations

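Actg2, Tagln and Cnn1 were low relative to Myh11 in the libraries with upper small intestine markers, a pattern picked after its values were seen and not tested. Counts of Actg2 per count of Myh11 were 0.423 in VSG 2, 0.402 in SPF 2 and 0.319 in SPF 4, against 0.488 to 1.33 in the other 7 libraries. For Tagln the ratio was 0.511 to 0.658 in those 3 libraries and 0.735 to 2.69 in the others. For Cnn1 it was 0.209 to 0.297 against 0.304 to 0.819, with a narrow gap. The ratios of the other 6 genes to Myh11 overlapped. SPF 3, where Myh11 was at its lowest, had the highest ratio to Myh11 for Acta2, Actg2, Myl9, Mylk, Tagln, Lmod1 and Des. In that library Mylk stood at 6.35 counts per count of Myh11, against 0.751 to 2.19 in the other 9.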
